A study of Homo sapiens with 2 samples.

Results

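The 10 genes described here encode the sestrins (SESN1, SESN2, SESN3), the stress-induced inhibitor REDD1 (gene DDIT4), and the core of the mTORC1 control circuit (MTOR, RPTOR, AKT1S1, RHEB, TSC1, TSC2). They were chosen by symbol from the 58302 genes of the expression table, and each symbol occurred there 1 time. The study holds 2 RNA-seq libraries of HL60 cells, 1 per condition. HL60 is an established human leukemia line of promyelocytic type. Both libraries came from the same stable derivative, HL60-EIF2S3, which carries a Tet-Off transgene for EIF2S3, a gene whose product is the gamma subunit of eIF2, the factor that brings the initiator tRNA to ribosomes. In the library labelled DOX(-) no doxycycline was given, the state in which a Tet-Off transgene is on. In the library labelled DOX(+) the cells were given doxycycline, which shuts such a transgene off. The labels give neither a dose nor a duration for doxycycline and do not say whether the line was a single clone. Doxycycline itself also differs between the conditions.

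mTORC1 is a protein kinase complex that promotes protein synthesis and cell growth when amino acids and growth factors are present. The small GTPase RHEB switches it on at the lysosome, and the TSC1-TSC2 complex switches RHEB off. Sestrins restrain the amino acid branch by binding GATOR2, and REDD1 restrains mTORC1 through the TSC complex. The genes for SESN2 and REDD1 are known targets of the stress transcription factor ATF4, whose translation rises when eIF2 is phosphorylated.

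The EIF2S3 row read 132.9 FPKM in DOX(-), against 126.2 in DOX(+). FPKM is a level per length, the fragments per kilobase of transcript scaled to library size. The 95% counting interval of its ratio, 1.05, ran between 0.927 and 1.20 on the shortest annotated transcript. On the longest it ran between 1.02 and 1.09, which excludes equal levels with the deposited scaling. Rescaling the libraries without mitochondrial genes multiplies each ratio of DOX(-) over DOX(+) by 0.933. Which library holds more EIF2S3 thus depends on the scaling. The libraries held 16577676 (DOX(-)) and 18519439 (DOX(+)) fragments, as recovered from the values. Counting intervals below are exact and cover counting error only, not the spread between cultures. Of 8 marker genes of HL60 and neutrophil precursors, the granule protein genes ELANE, PRTN3, AZU1 and CTSG were abundant, but MPO, the myeloperoxidase gene that defines promyelocytes, was at 0.274 FPKM in DOX(-), against 0.469 in DOX(+), and KIT was below 1 FPKM as well. The summed level of these 8 markers was 1389 FPKM in DOX(-), against 1116 in DOX(+). Among 8 markers of other blood cells 4 were at 0 in both libraries (CD3E, MS4A1, HBB, PF4), and the sum was 19.8 FPKM in DOX(-), against 13.0 in DOX(+), nearly all of it NKG7 (19.4 FPKM in DOX(-), against 12.6 in DOX(+)). The part of these markers in the results was not tested. In bulk RNA, fewer cells of a type and less RNA per cell cannot be told apart.

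The start-site regions of the 2 members past 1.5-fold, SESN2 and DDIT4, are shown with that of TSC2, the member that holds the letters of an ATF4 element in this window. They are RefSeq windows of GRCh38.p14, from 250 bases before to 50 bases after the annotated start. They lie at chr1:28259268-28259567 (SESN2), chr10:72273674-72273973 (DDIT4) and chr16:2047735-2048034 (TSC2), all read from the plus strand. Capitals mark matches, on either strand, to TGATGNAA (the composite element of ATF4 and C/EBP proteins), ACGTG (the core of the hypoxia response element), CCAAT (the NF-Y box), GTAAACA (the FOXO site) and TGACGT (part of the cAMP response element).
SESN2: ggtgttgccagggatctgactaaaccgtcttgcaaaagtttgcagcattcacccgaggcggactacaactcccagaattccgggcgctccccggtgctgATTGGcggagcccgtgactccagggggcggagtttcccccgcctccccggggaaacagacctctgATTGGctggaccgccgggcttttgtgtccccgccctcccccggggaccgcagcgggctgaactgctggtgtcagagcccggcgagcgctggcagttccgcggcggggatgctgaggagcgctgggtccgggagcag
DDIT4: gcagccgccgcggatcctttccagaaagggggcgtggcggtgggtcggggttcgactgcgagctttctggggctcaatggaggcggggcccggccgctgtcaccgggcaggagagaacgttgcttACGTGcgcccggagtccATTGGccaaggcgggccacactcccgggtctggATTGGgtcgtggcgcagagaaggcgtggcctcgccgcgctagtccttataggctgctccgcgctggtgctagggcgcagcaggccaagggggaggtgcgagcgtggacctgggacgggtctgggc
TSC2: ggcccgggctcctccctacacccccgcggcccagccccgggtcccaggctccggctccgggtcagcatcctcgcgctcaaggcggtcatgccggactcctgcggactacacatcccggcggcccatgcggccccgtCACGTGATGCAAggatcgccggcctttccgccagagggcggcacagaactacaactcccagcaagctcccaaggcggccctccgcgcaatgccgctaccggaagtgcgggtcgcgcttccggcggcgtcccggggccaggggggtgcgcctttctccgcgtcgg

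The SESN2 window held CCAAT on the opposite strand with first bases at positions -151 and -86 from the start site, and none of the other letters. The DDIT4 window held ACGTG at -125 and CCAAT on the opposite strand at -108 and -75. In the TSC2 window TGATGNAA lay at -110 and shared its first letters with ACGTG at -113, which also read on the opposite strand. RefSeq windows were matched for 9 of the 10 members, 12 windows in all. SESN1 has 3 and TSC2 has 2, of which the first is shown. AKT1S1 was not matched. Below, a member counts if any of its windows holds the letters, while the share beside it is per window. The member counts and the shares are therefore not like for like. CCAAT was found for 5 members (SESN1, SESN2, DDIT4, MTOR, RHEB) and in 34.6% of all 35116 windows. ACGTG was found for 3 (DDIT4, RHEB, TSC2) and in 21.4% of windows. TGATGNAA was found for TSC2 alone and in 3.62% of windows, TGACGT for RHEB alone and in 7.98%, and GTAAACA for no member and in 3.42%. The motifs were picked with the expression values known, and a match is a run of letters, not a site shown to be bound.

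Of the 9 members with at least 1 FPKM in either library, 2 passed 1.5-fold upward in DOX(-) on the log2(FPKM + 1) scale (SESN2 and DDIT4) and 0 passed it downward. The same share over all 11525 genes tested was 3.11% higher and 4.06% lower. The other 7 members tested lay within 1.5-fold, between -0.33 and 0.32 in log2 ratio. All 9 were at 1 FPKM or more in both libraries, and SESN3 was below 1 FPKM in both. The median log2 ratio of the 9 members was 0.10, beside -0.02 over all genes tested, and it was -0.04 for the 7 without SESN2 and DDIT4. With 1 library per condition there is no replicate check and no test. All differences are between these 2 libraries.

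**Figure D1:**
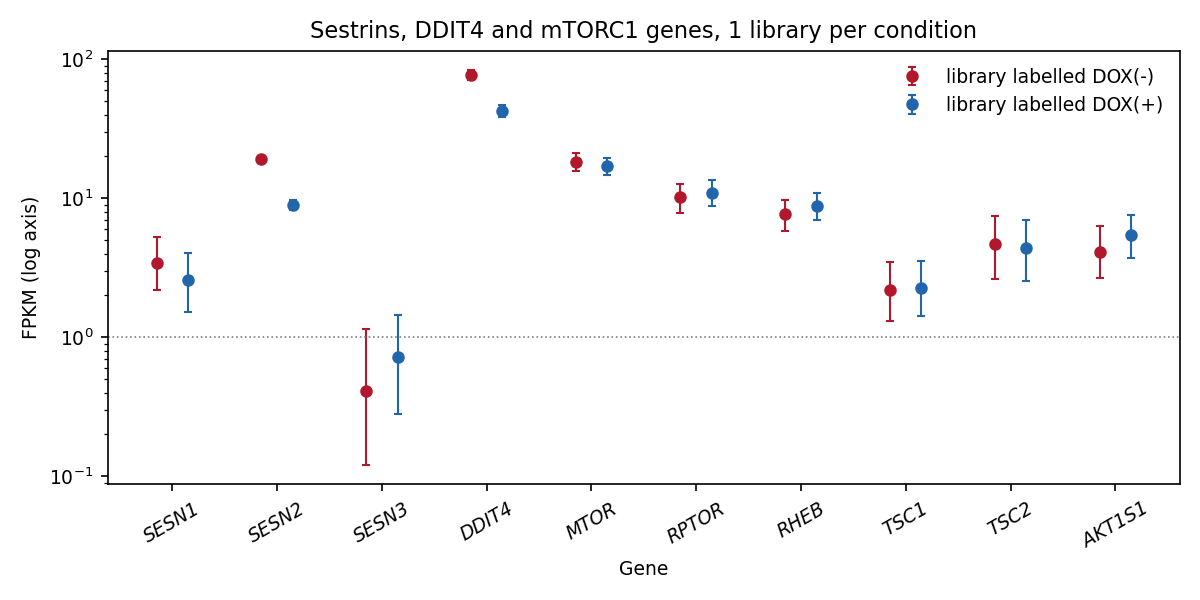
FPKM of the 10 members on a log axis, for the library labelled DOX(-) (red, left of each pair) and the library labelled DOX(+) (blue), with 95% counting intervals on the shortest annotated transcript. The dotted line marks 1 FPKM. The intervals of SESN2 and DDIT4 do not overlap between libraries, and those of the other 8 genes do.

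SESN2 encodes the sestrin that binds leucine and, when leucine is scarce, holds back GATOR2. The gene (ENSG00000130766, chromosome 1, 28259527 to 28282491, plus strand, GRCh38) stood at 19.1 FPKM in DOX(-), against 8.98 in DOX(+). It has a single annotated transcript of 3453 nucleotides, so its values translate into 1092 fragments in DOX(-) and 574 in DOX(+). No other annotated gene shares its exons. The plain ratio was 2.13, with counting bounds of 1.92 to 2.36, and the log2 ratio on the FPKM + 1 scale was 1.01. SESN2 ranked 94th from the top of the 11525 genes tested and was the only member to reach 2-fold on that scale, which 0.833% of all genes tested reached upward.

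DDIT4 encodes REDD1, a short-lived protein that rises under hypoxia, energy shortage, glucocorticoids and DNA damage. The gene (ENSG00000168209, chromosome 10, 72273920 to 72276036, plus strand) stood at 77.0 FPKM in DOX(-), against 42.3 in DOX(+), the highest level of any member in each library. The plain ratio was 1.82, with counting bounds of 1.61 to 2.06 on the shortest of 3 annotated transcripts and 1.70 to 1.95 on the longest. Its log2 ratio of 0.85 ranked 132nd from the top. The antisense gene DDIT4-AS1 covers 41.2% of the DDIT4 exonic bases, and whether the libraries kept strand was not given. DDIT4-AS1 was listed at 0.926 FPKM in DOX(-), against 0.574 in DOX(+), or 13 fragments in DOX(-) and 9 in DOX(+), beside at least 665 fragments of DDIT4 in DOX(-) and 408 in DOX(+). DDIT4L, the paralog that encodes REDD2, was at 0 in both libraries.

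The other sestrin genes were lower in level than SESN2 in both libraries. SESN1 lay within 1.5-fold, and SESN3 was too low to be tested. SESN1, which encodes another GATOR2-binding sestrin, stood at 3.45 FPKM in DOX(-), against 2.57 in DOX(+) (ENSG00000080546, chromosome 6, 108986437 to 109094819, minus strand). Its plain ratio of 1.34 had counting bounds of 0.699 to 2.70 on the shortest of 7 transcripts and 1.09 to 1.66 on the longest. SESN3, known as a FOXO target, stood at 0.411 FPKM in DOX(-), against 0.719 in DOX(+) (ENSG00000149212, chromosome 11, 95165513 to 95232541, minus strand). On its shortest transcript these were 4 fragments in DOX(-) and 7 in DOX(+), and on its longest 65 in DOX(-) and 127 in DOX(+). The plain ratio of SESN3 was 0.572, and its interval was 0.137 to 2.51 on the shortest and 0.417 to 0.777 on the longest transcript. SESN3 therefore leaned the other way from SESN2, at a level where the transcript assumed decides whether counting error covers the difference.

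The 3 sestrin genes together came to 22.9 FPKM in DOX(-), against 12.3 in DOX(+). SESN2 made up 83.2% of this sum in DOX(-) and 73.2% in DOX(+). The share of SESN1 was 15.0% in DOX(-) and 21.0% in DOX(+), and that of SESN3 was 1.79% in DOX(-) and 5.86% in DOX(+). In both libraries SESN2 was the leading sestrin transcript per length.

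The genes of the kinase complex itself lay within 1.5-fold. MTOR, which encodes the kinase, stood at 18.3 FPKM in DOX(-), against 17.0 in DOX(+) (ENSG00000198793, chromosome 1, 11106535 to 11262507, minus strand), and its plain ratio was 1.08 (counting interval 0.875 to 1.32). On the longest of its 7 transcripts the interval was 1.02 to 1.14. RPTOR, which encodes the raptor scaffold that recruits substrates, stood at 10.1 FPKM in DOX(-), against 10.9 in DOX(+) (ENSG00000141564, chromosome 17, 80544819 to 80966371, plus strand). Its ratio of 0.930 had an interval of 0.664 to 1.28. AKT1S1 encodes PRAS40, a subunit that blocks substrate access until growth factor signalling phosphorylates it. It stood at 4.14 FPKM in DOX(-), against 5.44 in DOX(+) (ENSG00000204673, chromosome 19, 49869033 to 49878459, minus strand), a ratio of 0.760.

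AKT1S1 had the lowest log2 ratio of the 9 members tested, -0.33. Its counting interval was 0.437 to 1.37 on the shortest of 9 transcripts and 0.645 to 0.896 on the longest. The AKT1S1 model shares 6.83% of its exonic bases with TBC1D17 on the opposite strand, which was at 1.69 FPKM in DOX(-), against 1.71 in DOX(+). Fragments of shared bases can go to either model.

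The genes of the TSC complex had counting intervals that include equal levels on either transcript length. TSC1, which encodes hamartin, the subunit that stabilises the complex, stood at 2.17 FPKM in DOX(-), against 2.26 in DOX(+), and its ratio was 0.960 (interval 0.481 to 1.89). TSC2, which encodes tuberin, the subunit that makes RHEB hydrolyse its GTP, stood at 4.72 FPKM in DOX(-), against 4.35 in DOX(+), and its ratio was 1.09 (interval 0.497 to 2.21). On the longest transcripts these intervals narrowed to 0.824 to 1.12 for TSC1 and 0.958 to 1.23 for TSC2. The deposited table places TSC1 (ENSG00000165699) on chromosome 9 at 132891348 to 132944633 and TSC2 (ENSG00000103197) on chromosome 16 at 2047465 to 2088720. Both loci differ from those of the annotation used for transcript lengths. TSC2 shares exonic bases on opposite strands with NTHL1 (6.60 FPKM in DOX(-), against 5.10 in DOX(+)) and PKD1 (0.827 FPKM in DOX(-), against 0.872 in DOX(+)).

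RHEB, the GTPase that activates mTORC1, stood at 7.65 FPKM in DOX(-), against 8.73 in DOX(+) (ENSG00000106615, chromosome 7, 151466012 to 151520120, minus strand), and its ratio was 0.876 (interval 0.615 to 1.22). Its value is uncertain in both libraries, because 2 intronless copies of its coding sequence were listed far above it. The processed pseudogene RHEBP1 (chromosome 10, 46634911 to 46635466) stood at 68.5 FPKM in DOX(-), against 62.7 in DOX(+). RHEBP2 (chromosome 10, 47706203 to 47706802) stood at 44.1 FPKM in DOX(-), against 49.4 in DOX(+). A further copy, RHEBP3, was at 0 in both libraries.

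RHEBP1 is identical to the RHEB messenger RNA at 551 of 556 bases, and RHEBP2 at 592 of 600. Of the stretches of 50 bases in RHEBP1, 64.5% occur letter for letter in RHEB, and of those in RHEBP2, 57.5%. Bases 430 to 489 of the RHEB coding sequence, from the transcripts of GENCODE release 29 and read along the coding strand, are shown with the aligned bases of the pseudogenes because they hold the densest differences. Capitals mark the positions where the copies differ from RHEB.
RHEB: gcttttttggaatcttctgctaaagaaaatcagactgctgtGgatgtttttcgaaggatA
RHEBP1: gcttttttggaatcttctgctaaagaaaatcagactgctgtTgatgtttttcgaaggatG
RHEBP2: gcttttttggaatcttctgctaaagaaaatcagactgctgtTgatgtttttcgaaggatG

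Both pseudogenes differ from RHEB at the same 2 bases of this stretch and are identical to each other there. A fragment from within this stretch that covers neither position would match all 3 genes. In fragments, RHEBP1 held 631 in DOX(-) and 646 in DOX(+), and RHEBP2 held 439 in DOX(-) and 549 in DOX(+). RHEB held 263 in DOX(-) and 335 in DOX(+) if all came from its longest transcript, or 63 in DOX(-) and 81 in DOX(+) on its shortest. RHEB thus took 19.7% of the fragments of the 3 models in DOX(-) and 21.9% in DOX(+) on the longest transcript, and 5.56% in DOX(-) and 6.35% in DOX(+) on the shortest. Taken as a sum, the 3 models came to 80.4 fragments per 1000000 in DOX(-) and 82.6 in DOX(+), and their ratio was 0.973 (counting interval 0.904 to 1.05). On the shortest transcript the ratio was 0.992, with an interval of 0.915 to 1.08. Where the fragments listed under the pseudogenes came from was not tested.

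**Figure D2:**
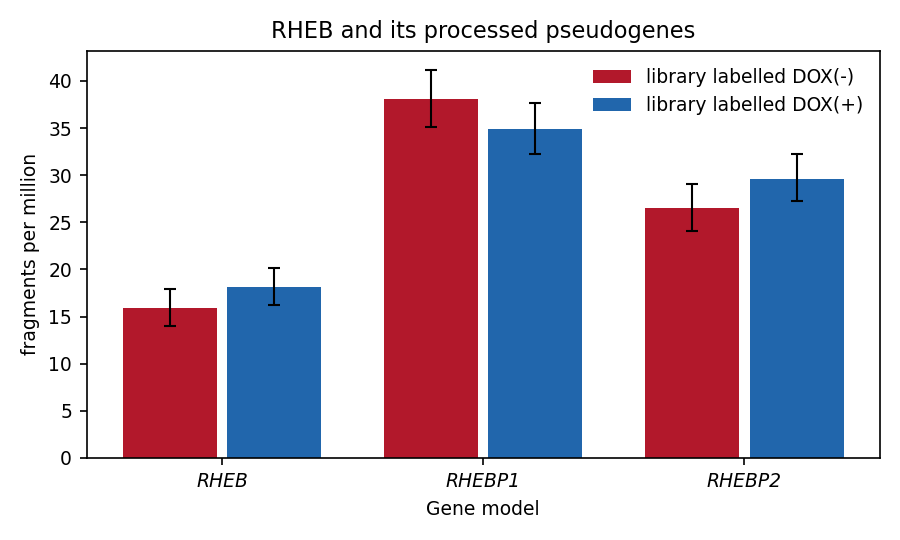
Fragments assigned (scaled per 1000000 fragments of the library) to RHEB (on its longest transcript) and to the pseudogenes RHEBP1 and RHEBP2, for the library labelled DOX(-) (red) and the library labelled DOX(+) (blue), with 95% counting intervals. Both pseudogenes stand above RHEB in each library, and RHEBP1 is the highest at 38.1 in DOX(-) and 34.9 in DOX(+).

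In order of level per length, DDIT4 was first in DOX(-), followed by SESN2, MTOR, RPTOR, RHEB, TSC2, AKT1S1, SESN1, TSC1 and SESN3. In DOX(+) the order was DDIT4, MTOR, RPTOR, SESN2, RHEB, AKT1S1, TSC2, SESN1, TSC1 and SESN3. SESN2 stood above MTOR and RPTOR in DOX(-) and below both in DOX(+). Counting intervals on the shortest transcripts overlapped for 6 of 9 neighbouring pairs in DOX(-), among them SESN2 and MTOR. In DOX(+) they overlapped for 7 of 9, among them RPTOR and SESN2. The order within these named pairs is thus not settled at this depth, nor is that among the lower genes.

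Ratios between genes of the same library do not depend on how the libraries are scaled. DDIT4 was 4.21 times MTOR in FPKM in DOX(-) and 2.49 times in DOX(+). SESN2 was 1.04 times MTOR in DOX(-) and 0.529 times in DOX(+). Between DDIT4 and SESN2 the ratio was 4.04 in DOX(-) and 4.71 in DOX(+), so this ratio differed less between the libraries than either gene did against MTOR. RPTOR was 0.554 times MTOR in DOX(-) and 0.643 times in DOX(+), AKT1S1 was 0.408 times RPTOR in DOX(-) and 0.499 times in DOX(+), and TSC2 was 2.17 times TSC1 in DOX(-) and 1.92 times in DOX(+).

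**Figure D3:**
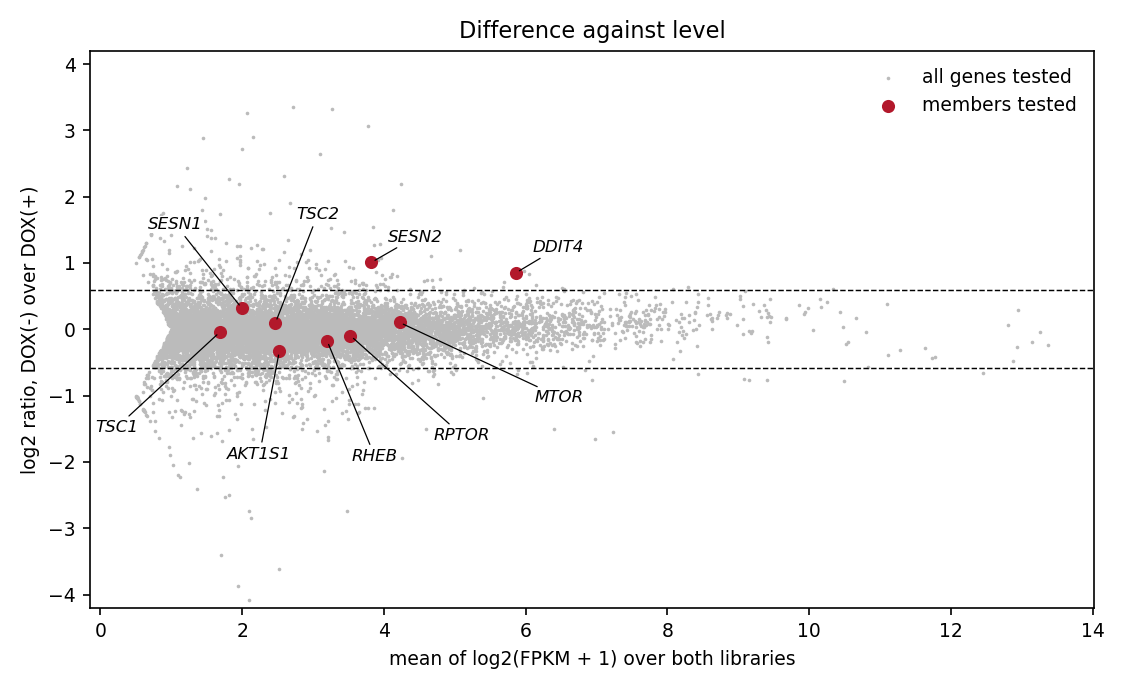
Log2 ratio of FPKM + 1 (library labelled DOX(-) over DOX(+)) against the mean log2(FPKM + 1) of both libraries, for all genes tested (grey) and the 9 members tested (red). Dashed lines mark 1.5-fold, and 3 genes lie beyond the vertical axis. SESN2 at 1.01 and DDIT4 at 0.85 lie above the upper line, and the other members lie between the lines.

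Upstream of the complex, amino acids act through GATOR1, GATOR2, KICSTOR and the Rag GTPases, which Ragulator tethers to the lysosome. All 12 genes of the GATOR and KICSTOR list lay within 1.5-fold (median log2 ratio 0.14). Among those of 2 FPKM or more in either library, the 3 with the widest differences were MIOS (3.39 FPKM in DOX(-), against 2.54 in DOX(+)), NPRL3 (5.78 FPKM in DOX(-), against 4.64 in DOX(+)) and WDR59 (2.01 FPKM in DOX(-), against 1.63 in DOX(+)). Their ratio intervals on the shortest transcripts all included equal levels (0.762 to 2.38, 0.811 to 1.91 and 0.492 to 3.05). On the longest, MIOS (1.07 to 1.65) and NPRL3 (1.06 to 1.47) excluded them and WDR59 (0.999 to 1.52) did not. MIOS and WDR59 encode subunits of GATOR2, the complex that sestrins bind, and NPRL3 a subunit of GATOR1, the GTPase-activating complex that turns RRAGA and RRAGB off. NPRL3 shares exonic bases on the opposite strand with MPG (9.81 FPKM in DOX(-), against 7.27 in DOX(+)).

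Of the 12 tested genes for Rag GTPases, Ragulator and folliculin partners, 1 was 1.5-fold lower in DOX(-) and none was 1.5-fold higher (median -0.24). The lower gene was LAMTOR3, a Ragulator subunit, at 3.25 FPKM in DOX(-), against 6.27 in DOX(+), and its plain ratio was 0.518 (counting interval 0.366 to 0.727). The other 4 Ragulator genes had log2 ratios between -0.03 and 0.22, the highest being LAMTOR2 (20.4 FPKM in DOX(-), against 17.3 in DOX(+)). RRAGA stood at 6.34 FPKM in DOX(-), against 9.31 in DOX(+), and its ratio of 0.681 had an interval of 0.558 to 0.828 on its single transcript. RRAGB was at 1.47 FPKM in DOX(-), against 1.91 in DOX(+), RRAGC at 7.34 FPKM in DOX(-), against 9.77 in DOX(+), and RRAGD at 5.54 FPKM in DOX(-), against 7.21 in DOX(+). All 4 Rag genes had a log2 ratio below 0 but lay within 1.5-fold. On the shortest transcripts the intervals of RRAGB (0.292 to 1.96), RRAGC (0.544 to 1.03) and RRAGD (0.574 to 1.03) included equal levels. On the longest, those of RRAGC (0.653 to 0.867) and RRAGD (0.679 to 0.867) excluded them, and that of RRAGB (0.523 to 1.11) did not. Of all 11525 genes tested, 6152 had a log2 ratio below 0. FNIP2, a folliculin partner, was at 4.29 FPKM in DOX(-), against 6.19 in DOX(+).

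Among the amino acid sensors, 4 of 6 were tested and none passed 1.5-fold (median -0.07). SAR1B stood at 2.09 FPKM in DOX(-), against 3.18 in DOX(+), and LARS, the leucyl-tRNA synthetase gene, at 26.0 FPKM in DOX(-), against 22.1 in DOX(+). SAR1B shares exonic bases on the opposite strand with SEC24A (9.36 FPKM in DOX(-), against 10.9 in DOX(+)). CASTOR2, one of the arginine-sensor genes, was at 3.89 FPKM in DOX(-), against 3.52 in DOX(+). Its partner CASTOR1 was listed at 0.00819 FPKM in DOX(-), against 0.0733 in DOX(+).

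All 17 tested genes for growth factor and energy inputs to the TSC complex lay within 1.5-fold (median -0.07). Among them were the kinase genes MAPK3 (4.38 FPKM in DOX(-), against 3.58 in DOX(+)) and PRKAA1, a catalytic subunit of AMPK (12.9 FPKM in DOX(-), against 15.0 in DOX(+)). Of 9 tested genes for other subunits and assembly factors of mTORC1 and mTORC2, none passed 1.5-fold (median 0.08). RUVBL2, an ATPase that helps assemble the complexes, was at 74.6 FPKM in DOX(-), against 54.9 in DOX(+), and its partner RUVBL1 at 20.4 FPKM in DOX(-), against 16.3 in DOX(+). RUVBL1 shares exonic bases on the opposite strand with SEC61A1 (21.0 FPKM in DOX(-), against 30.7 in DOX(+)) and EEFSEC (7.20 FPKM in DOX(-), against 7.46 in DOX(+)). RICTOR, the scaffold of mTORC2, was at 1.87 FPKM in DOX(-), against 2.69 in DOX(+). MLST8, shared by both complexes, was at 4.62 FPKM in DOX(-), against 3.81 in DOX(+), and DEPTOR, an inhibitor of both, at 3.96 FPKM in DOX(-), against 3.25 in DOX(+).

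Downstream, all 17 genes for substrates and effectors lay within 1.5-fold (median 0.06). EIF4B, an initiation factor that S6 kinases phosphorylate, came nearest to the line, at 135.0 FPKM in DOX(-), against 91.1 in DOX(+) (log2 ratio 0.56). Its pseudogene EIF4BP7 was listed at 87.8 FPKM in DOX(-), against 62.6 in DOX(+), so the split of fragments between them is uncertain. EIF4EBP1, the translation repressor that mTORC1 inactivates, was at 141.0 FPKM in DOX(-), against 108.3 in DOX(+), with an interval of 1.21 to 1.40 for its ratio. RPS6KB1, which encodes the first S6 kinase, was at 3.27 FPKM in DOX(-), against 4.91 in DOX(+), a ratio of 0.666. Its interval was 0.376 to 1.13 on the shortest transcript and 0.575 to 0.771 on the longest. Only the interval on the longest excludes equal levels.

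Among transcription factors known to act on sestrin and DDIT4 genes, 1 of 13 tested passed 1.5-fold upward in DOX(-) and 0 passed it downward (median 0.01). It was DDIT3, which encodes CHOP, at 4.63 FPKM in DOX(-), against 1.73 in DOX(+), and its plain ratio was 2.68 (interval 1.53 to 4.58). ATF4 was at 100.7 FPKM in DOX(-), against 71.7 in DOX(+), a ratio of 1.40 (interval 1.32 to 1.49), and its pseudogene ATF4P3 was listed at 19.6 FPKM in DOX(-), against 14.3 in DOX(+). DDIT3 shares exonic bases with MARS on the opposite strand (15.1 FPKM in DOX(-), against 13.7 in DOX(+)). It also shares some on that strand with MBD6 (3.31 FPKM in DOX(-), against 2.92 in DOX(+)). The locus deposited for DDIT3 differs from that of the annotation used for transcript lengths. HIF1A, the hypoxia factor, was at 6.35 FPKM in DOX(-), against 7.81 in DOX(+), and NFE2L2, of the oxidative stress response, at 2.40 FPKM in DOX(-), against 3.12 in DOX(+). FOXO3, a factor known to act on sestrin genes, was at 5.68 FPKM in DOX(-), against 5.50 in DOX(+).

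Of 9 tested genes for other regulators tied to sestrins and REDD1, 1 was 1.5-fold higher and none 1.5-fold lower (median 0.02). TXNIP, which encodes a partner of REDD1 that also restrains glucose uptake, was at 7.48 FPKM in DOX(-), against 4.56 in DOX(+), and its plain ratio was 1.64 (interval 1.09 to 2.47). TRIB3, the pseudokinase gene that ATF4 and CHOP induce, was at 16.2 FPKM in DOX(-), against 13.8 in DOX(+). PPP2CA, a phosphatase catalytic subunit, was at 38.5 FPKM in DOX(-), against 45.4 in DOX(+) and shares exons on the same strand with AC104109.3 (0.624 FPKM in DOX(-), against 10.6 in DOX(+)). Over the 8 pathway lists, 2 of 93 tested genes were 1.5-fold higher in DOX(-) (DDIT3 and TXNIP) and 1 was 1.5-fold lower (LAMTOR3), beside the 3.11% and 4.06% of all genes given above.

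**Figure D4:**
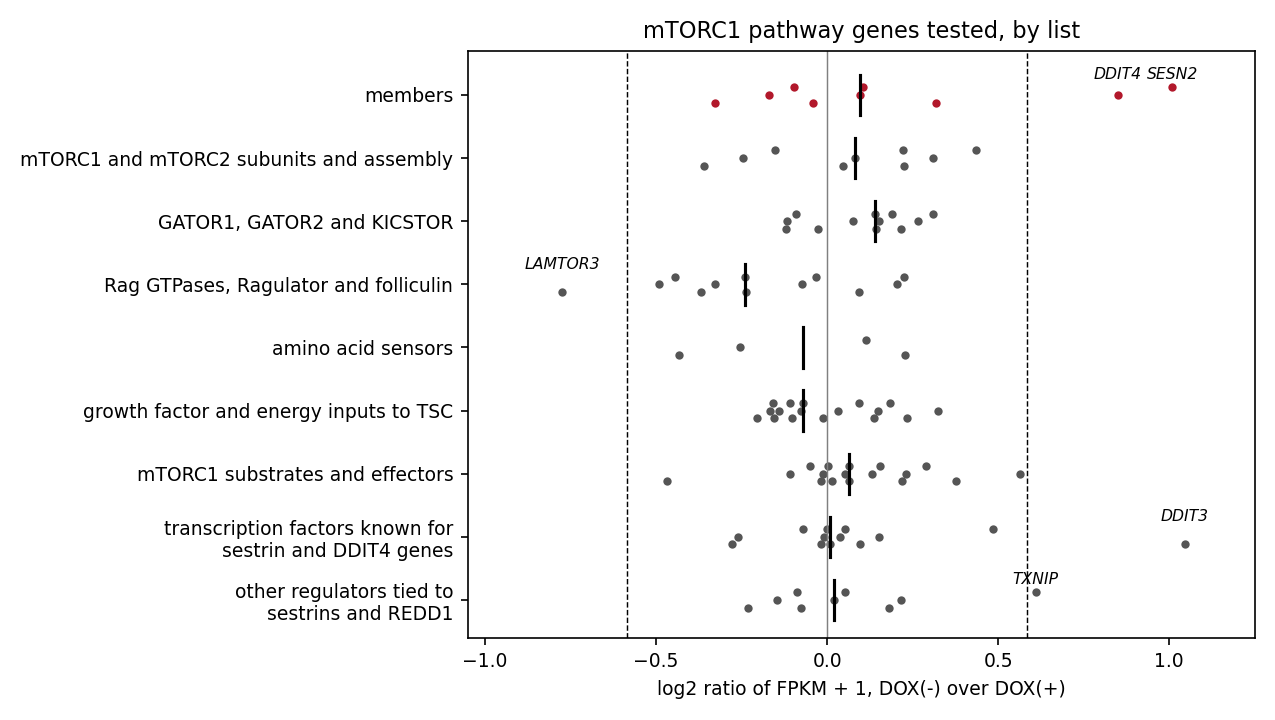
Log2 ratio of FPKM + 1 (library labelled DOX(-) over DOX(+)) for each tested gene, by list, with the members in red, black bars at list medians and dashed lines at 1.5-fold. Genes past a dashed line are named: SESN2, DDIT4, DDIT3 and TXNIP on the right and LAMTOR3 on the left.

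The protein-coding genes nearest to SESN2 in both levels, measured as distance in log2(FPKM + 1) over the 2 libraries, were GOLM1 (18.0 FPKM in DOX(-), against 8.64 in DOX(+)), IRF8 (18.9 FPKM in DOX(-), against 9.94 in DOX(+)), AC011448.1, HIBADH (21.5 FPKM in DOX(-), against 8.35 in DOX(+)) and AC024592.3, at distances of 0.09 to 0.20. Those nearest to DDIT4 were RPL37 (87.2 FPKM in DOX(-), against 48.3 in DOX(+)), TKT, AZU1, AARS and CAPG, at distances of 0.26 to 0.32. With 2 libraries this is only closeness of a pair of values.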

How the data were processed

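The authors deposited FPKM values, 1 for each gene in each library, in a single table. Tools listed without roles in the submitters' processing notes are StringTie 1.3.4b, HISAT2 2.1.0, edgeR and CASAVA 1.8, and the builds listed are GRCh38 and hg38. The annotation release was not given in the sources used here.

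Members were taken by symbol. Levels were compared as log2(FPKM + 1), DOX(-) minus DOX(+), for the 11525 genes that reached 1 FPKM in at least 1 library, with a rule of 1.5-fold and no test. Transcript lengths and exon overlaps came from GENCODE release 29, which held 58039 of the 58302 identifiers. In genes with 1 transcript, FPKM values are multiples of 1 fragment, which gave the library totals: 99.5% (DOX(-)) and 99.6% (DOX(+)) of values up to 100 fragments were whole within 0.02. Ratio intervals are exact conditional (Clopper-Pearson) on fragments of the shortest transcript, and level intervals are exact Poisson. The calculations (Python 3.11.15, scipy 1.17.1, Biopython 1.88) were tested on simulated data.

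The members and lists were chosen with earlier results of these data known. Named genes were all members, list genes past 1.5-fold, the 3 of widest difference per list among those of 2 FPKM or more, fixed symbols and, for SESN2 and DDIT4, the 5 nearest genes; some genes that this rule names are not reported here. RHEB and EIF4B pseudogenes, ATF4P3, overlapping genes and the genes of the closing section were named after their values were seen. Alternatives covered the pseudocount, the filter, 4 scalings, the size rule and the transcript length.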

Additional observations from a re-analysis of the deposited data

How the results depend on the processing

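SESN2 and DDIT4 stayed 1.5-fold higher and no member became 1.5-fold lower under every pseudocount, filter and scaling tried. By a 2-fold rule 1 member (SESN2) was higher with the deposited scaling. Across these alternatives the log2 ratio ranged from 0.93 to 1.08 for SESN2 and from 0.76 to 0.88 for DDIT4, no member changed sign, and the members' median ranged from 0.00395 to 0.12. Rescaling without mitochondrial genes, which took 22.5% of FPKM in DOX(-) and 27.7% in DOX(+), gave the low end for SESN2 and moved the median of all genes tested to -0.11 from -0.02. SESN2 was then under 2-fold, as it was when rescaled to the total of protein-coding nuclear genes (log2 ratio 0.99).

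Among pathway genes, 1 was higher under the filter of 5 FPKM, 1 without mitochondrial genes and 1 by the 2-fold rule, against 2. Lower pathway genes numbered 2 without mitochondrial genes (RRAGA with LAMTOR3) and 0 by the 2-fold rule, against 1. EIF4B passed 1.5-fold under median-of-ratios and trimmed-mean scaling. All 4 Rag genes stayed below 0 under each scaling. The scalings multiplied every ratio by only 0.933 to 1.02, too little to turn their sign, so this is no check on them. With the deposited scaling 6152 of the 11525 genes tested were below 0. The sign of the medians of 5 pathway lists turned under some alternative: amino acid sensors (-0.16 to 0.23), complex subunits (-0.0057 to 0.11), substrates (-0.04 to 0.09), transcription factors (-0.06 to 0.04) and other regulators (-0.06 to 0.04). For the amino acid sensors the upper end is the value of 1 gene, LARS, the only sensor left by the filter of 5 FPKM. Counting intervals excluded equal levels for 2 members on the shortest transcripts (SESN2, DDIT4) and for 6 on the longest, which adds SESN1, SESN3, MTOR and AKT1S1. The same share over all genes tested is not given here, so these counts do not set the members apart. The intervals also take the deposited scaling as given. Without mitochondrial genes the log2 ratio of MTOR was 0.0087. Without replicates, the spread between cultures is unknown, and low genes such as SESN3 are limited by depth.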

Other observations

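RHEBL1, the RHEB-like gene whose protein can also activate mTORC1, stood at 2.19 FPKM in DOX(-), against 1.18 in DOX(+). Its plain ratio of 1.85 had a counting interval of 0.765 to 5.38 on the shortest transcript and 1.12 to 3.05 on the longest, and its log2 ratio of 0.55 lay within 1.5-fold on the FPKM + 1 scale.

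The neighbours of the SESN2 and DDIT4 genes lay within 1.5-fold. Among the 3 nearest tested protein-coding genes on each side of SESN2, log2 ratios lay between -0.41 and 0.02. The nearest was ATP5IF1, which encodes an inhibitor of the mitochondrial ATP synthase, 12.6 kb away (25.1 FPKM in DOX(-), against 24.7 in DOX(+)). The lowest was RCC1, which encodes the exchange factor of the GTPase Ran, 223 kb away (27.1 FPKM in DOX(-), against 36.2 in DOX(+)). Around DDIT4 the 6 genes lay between -0.17 and 0.25. The nearest was ANAPC16, 38.1 kb away (5.41 FPKM in DOX(-), against 5.91 in DOX(+)). PSAP, the highest, was 423 kb away. The mitochondrial calcium channel gene MCU was 416 kb away (7.38 FPKM in DOX(-), against 6.61 in DOX(+)).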
